A study of Mus musculus with 48 samples.

Results

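The interleukin-1 (IL-1) family and the inflammasome were described in the mouse thoracic aorta by 10 genes, picked by name with earlier results of these data known: the ligands Il1a, Il1b and Il33, the receptor antagonist Il1rn, the receptors Il1r1, Il1r2 and Il1rl1, the inflammasome sensors Nlrp3 and Aim2, and the protease Casp1. All 10 were among the 18782 genes of the counts table, and 9 of them passed the filter on low counts that left 14431 genes to test. Il1a did not pass it and is given by its counts. The 48 libraries were bulk, strand-specific mRNA libraries, each from 1 wild-type C57BL/6J mouse. Aortic dissection (AD) was induced with β-aminopropionitrile (BAPN), which blocks the cross-linking of collagen and elastin, dissolved at 0.4% in drinking water, for 28 days and starting when the mice were 3 weeks old. Female mice given normal water formed FeCon (n = 10), females given BAPN whose aorta showed no lesion under the microscope formed FeNonAD (n = 8), and females given BAPN with a dissection or aneurysm formed FeAAD (n = 9). The male groups were MaCon (n = 10), MaNonAD (n = 4) and MaAAD (n = 7). NonAD and AAD mice had the same treatment and were separated by its outcome, and only mice alive at the end were sequenced. According to the methods, the vessel was flushed with saline, the ascending aorta, arch and proximal descending aorta were taken, and RNA came from what they call lesioned segments, with no separate statement for Con and NonAD mice.

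IL-1α and IL-1β act through the receptor IL1R1, and IL-1 receptor antagonist, the product of Il1rn, occupies that receptor without starting a signal. IL1R2 is a decoy that binds IL-1 and does not signal. IL-33, held in the nucleus of fibroblasts and other stromal cells, is released on damage and acts through ST2, the product of Il1rl1. IL-1β is made as an inactive precursor, and inflammasomes, which NLRP3 assembles on cell stress and AIM2 on cytosolic DNA, activate caspase-1, which cuts it into the active form. Neutrophils and monocytes are known sources of IL-1β and of the decoy receptor. Counts of mRNA carry no information on this cutting, and in whole tissue a change in the number of cells of a type and a change in RNA per cell cannot be told apart.

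In the GENCODE M21 annotation of GRCm38, Il1a (chr2:129299610-129309972, minus strand) and Il1b (chr2:129364570-129371139, minus strand) are neighbours, with Il1rn (chr2:24336853-24351494, plus strand) elsewhere on chromosome 2. The receptors Il1r2 (chr1:40074079-40125231), Il1r1 (chr1:40225080-40317257) and Il1rl1 (chr1:40429570-40465415) follow each other on the plus strand of chromosome 1, which also carries Aim2 (chr1:173350879-173466040). Il33 (chr19:29925114-29960718), Nlrp3 (chr11:59541568-59566956) and Casp1 (chr9:5298517-5307265) are on the plus strand of their chromosomes. None of the 10 spans overlaps, on its strand, another gene that the counts table lists. The counts include every exon of a gene, and they do not show which start site was used.

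The promoters of Il1b and Il1r2, the members with the largest fold changes, and of Casp1, a member with a small one, are shown as RefSeq gives them for GRCm38.p6, 300 bases each around the annotated start site, 5′ to 3′ on the gene's strand. Capitals mark matches, on either strand, to TATAAA, to GAGGAA (a PU.1-type motif, written TTCCTC where it lies on the other strand), to TGANTCA (an AP-1 motif) and to the NF-κB consensus. Il1b is chr2:129371090-129371389, Il1r2 is chr1:40085843-40086142, at a start inside the GENCODE span, and Casp1 is chr9:5298267-5298566.
Il1b: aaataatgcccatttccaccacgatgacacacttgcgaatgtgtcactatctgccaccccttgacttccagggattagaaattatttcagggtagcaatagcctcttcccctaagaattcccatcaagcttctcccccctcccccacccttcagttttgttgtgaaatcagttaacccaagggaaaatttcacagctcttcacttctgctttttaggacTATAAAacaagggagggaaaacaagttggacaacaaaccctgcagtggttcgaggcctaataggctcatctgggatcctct
Il1r2: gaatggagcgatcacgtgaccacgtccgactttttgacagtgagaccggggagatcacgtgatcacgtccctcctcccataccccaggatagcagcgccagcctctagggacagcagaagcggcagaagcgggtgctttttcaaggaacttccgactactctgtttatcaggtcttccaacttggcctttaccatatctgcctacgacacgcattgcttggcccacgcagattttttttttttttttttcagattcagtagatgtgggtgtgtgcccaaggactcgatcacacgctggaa
Casp1: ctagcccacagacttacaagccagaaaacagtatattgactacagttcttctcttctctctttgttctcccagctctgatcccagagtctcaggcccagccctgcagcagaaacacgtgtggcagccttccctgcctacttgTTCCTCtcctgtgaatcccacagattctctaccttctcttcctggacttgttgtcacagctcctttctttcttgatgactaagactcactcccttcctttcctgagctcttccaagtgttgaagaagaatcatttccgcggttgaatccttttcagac
Il1b had 1 match, a TATAAA that begins at position -31 with the start site counted as 0, Casp1 had 1 GAGGAA at position -108, and the Il1r2 window held none of the 4 motifs. Of 32851 mouse promoter windows of this length, 13.6% held TATAAA, 28.3% GAGGAA, 7.81% TGANTCA and 4.51% the NF-κB consensus, and a match describes letters only, not a bound site.

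Levels are given as CPM, counts scaled to a common library size with TMM factors, from libraries of 13548000 to 17281273 counts. A gene was called differentially expressed when its Benjamini-Hochberg adjusted p in edgeR was under 0.05 and its log2 fold change was at least 1 in size. Smooth muscle markers (Myh11, Acta2, Tagln and 7 others) summed to between 12047 and 61341 CPM in every library, and none of the 10 was under 0.1 CPM on average in any group. The libraries FeAAD5, FeAAD9 and MaAAD7 stood apart in summed neutrophil markers, with 891, 204 and 243 CPM against at most 56.3 CPM in the other 45 libraries, and fold changes in the lesion groups are given with and without them.

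In control aortas Il33 and Il1r1 were the members with the most RNA per length. Divided by the length of the longest transcript, Il33 had 9.88 ± 2.85 CPM per kilobase in FeCon (SD, n = 10) and 12.1 ± 1.84 in MaCon (SD, n = 10). Il1r1 had 8.89 ± 1.89 and 7.85 ± 1.16 CPM per kilobase, so in FeCon the first and second place did not differ beyond their spread. Casp1 followed, with 1.83 ± 0.36 and 1.99 ± 0.399 CPM per kilobase. The other 7 members were at 0.357 CPM per kilobase or lower in both control groups, with spreads that overlapped for most neighbours in the order, and Il1a was last. In the lesion groups Il33 still led, at 36.2 ± 31.4 in FeAAD and 45.6 ± 27.5 CPM per kilobase in MaAAD. Il1b, next to last but 1 in MaCon and next to last in FeCon, was the third in FeAAD (13.5 ± 25.4 CPM per kilobase) and the fourth in MaAAD (6.25 ± 5.86), with spreads that overlapped those of its neighbours, and Il1rl1 was next to last in both.

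**Figure D1:**
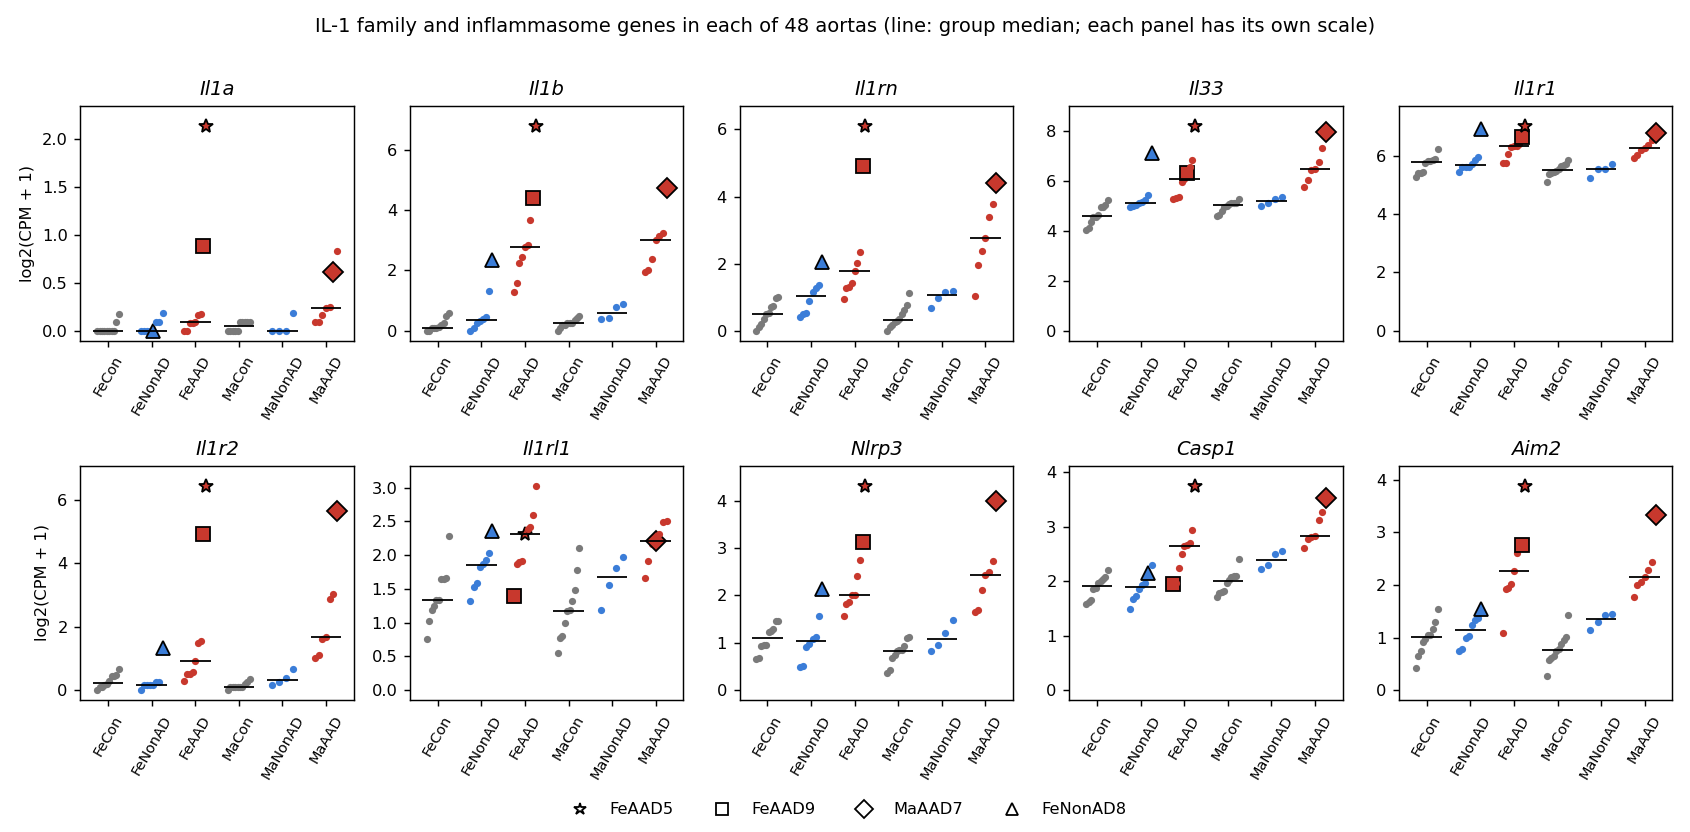
Level of each of the 10 genes in each of the 48 libraries, as log2(CPM + 1) on the vertical axis with a scale for each panel, by group on the horizontal axis (grey, control; blue, BAPN without a lesion; red, BAPN with a lesion); points are single mice, lines are group medians, and 4 libraries have symbols of their own. Il1b, Il33 and Nlrp3 were higher in every FeAAD library than in every FeCon library, and FeAAD5, FeAAD9 and MaAAD7 stood far above the other lesion libraries in Il1r2.

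Against the controls, 7 of the 9 tested members were called higher in FeAAD and 8 of 9 in MaAAD, and none was called lower. Over all tested genes, 9.94% were called higher in FeAAD against FeCon and 9.18% in MaAAD against MaCon. The median log2 fold change of the 9 members was 2.23 in females and 2.44 in males, against 0.00 and -0.03 over all tested genes. In FeAAD 3 members (Il1b, Il33 and Nlrp3) were higher in every library than in every FeCon library, as were 3.63% of all tested genes. In MaAAD 7 members were, all but Il1rn and Il1rl1, as were 6.14% of tested genes.

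The ligand Il1b rose most of the ligands. It lay between 0 and 0.513 CPM in FeCon (median 0.0728), where 8 of 10 libraries had 3 counts or fewer, and between 0 and 0.401 CPM in MaCon (median 0.195). In FeAAD it was 3.73, 4.46, 11.8, 2, 109, 6.23, 5.93, 1.45 and 20.2 CPM in mice 1 to 9, and in MaAAD 4.16, 7.07, 7.91, 2.89, 3.05, 8.56 and 25.7 CPM in mice 1 to 7. No lesion library reached down to its controls, and FeAAD5 alone held 66.1% of the FeAAD sum. Against FeCon the log2 fold change was 6.84 ± 0.82 (SE; edgeR adjusted p = 7.07e-09; 115-fold, 95% interval 5.24 to 8.45 on the log2 scale). Against MaCon it was 5.41 ± 0.80 (edgeR adjusted p = 7.08e-07; 42.5-fold). Because the control counts were so few, the size of both folds is known only within those wide limits.

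The antagonist Il1rn rose beside it. It lay between 0 and 1.01 CPM in FeCon (median 0.412) and between 0.909 and 67.2 CPM in FeAAD (median 2.4), with 29.2 CPM in FeAAD9 as the second highest, so that only FeAAD8 fell within the range of FeCon. In MaCon it was 0 to 1.18 CPM (median 0.237), and in MaAAD 2.89, 5.77, 9.37, 1.04, 12.6, 4.22 and 20.2 CPM, where only MaAAD4 fell within the range of MaCon. The log2 fold change was 4.73 ± 0.72 in females (edgeR adjusted p = 8.92e-07) and 4.41 ± 0.75 in males (edgeR adjusted p = 7.83e-06). Of the counts of Il1b and Il1rn together, Il1b made up a median of 61.5% in FeAAD, from 40.9% in FeAAD9 (334 of 817 counts, exact 95% interval 37.5 to 44.3) to 87.6% in FeAAD3 (191 of 218, 82.5 to 91.7). In MaAAD the median was 56%, from 19.5% in MaAAD5 (51 of 261 counts, 14.9 to 24.9) to 73.4% in MaAAD4 (47 of 64, 60.9 to 83.7). These intervals cover counting error only, and the shares were not tested between mice or groups.

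Il33, the alarmin of stromal cells, was already abundant in controls and rose less in proportion. FeCon lay between 15.4 and 37.2 CPM (median 23.4) and FeAAD between 38.3 and 293 CPM (median 66.1), with no overlap. MaCon lay between 23.1 and 37.6 CPM (median 32), and MaAAD had 64.3, 160, 107, 87.9, 54, 85.3 and 254 CPM, again with no overlap. The log2 fold change was 1.87 ± 0.31 in FeAAD (edgeR adjusted p = 3.31e-06) and 1.92 ± 0.32 in MaAAD (edgeR adjusted p = 6.23e-06), close to 3.66-fold and 3.78-fold. Fibroblast markers summed to medians of 12231 CPM in FeCon, 11402 in FeAAD, 11523 in MaCon and 14228 in MaAAD, with 2 of 10 called higher in each sex and 2 called lower in females.

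Il1a stayed near the limit of detection. It had at most 2 counts in any FeCon library and at most 1 in any MaCon library, and 7 of 9 FeAAD libraries had 3 counts or fewer. FeAAD5, with 57 counts (3.37 CPM), held 72.6% of the FeAAD sum, followed by FeAAD9 with 0.846 CPM, and the other 7 had 0 to 0.125 CPM, within the range of FeCon (0 to 0.131 CPM). In MaAAD the levels were 0.121, 0.062, 0.175, 0.184, 0.779, 0.062 and 0.525 CPM. With no filter on low counts, edgeR called it higher in FeAAD (log2 fold change 4.19 ± 0.90, adjusted p = 0.000211) and in MaAAD (2.79 ± 0.92, adjusted p = 0.0186), and in MaAAD 5 of 7 libraries had 3 counts or fewer, with 13 as the highest count.

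Of the receptors, Il1r1, the signalling receptor, was abundant throughout and rose by less than the fold threshold: it lay between 38 and 73.6 CPM in FeCon (median 54.1) and between 52.4 and 128 CPM in FeAAD (median 79.2), with an overlap of the groups. In MaAAD it was 64, 92.2, 81, 73.4, 59.4, 76.1 and 110 CPM, above all of MaCon (33.3 to 57.1 CPM, median 44.9). Its log2 fold change was 0.63 ± 0.16 in FeAAD (edgeR adjusted p = 0.00101) and 0.80 ± 0.17 in MaAAD (edgeR adjusted p = 0.000152).

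The decoy receptor Il1r2 had the largest rise in males. It lay between 0 and 0.59 CPM in FeCon (median 0.178) and between 0 and 0.267 CPM in MaCon (median 0.0661), where 9 of 10 libraries had 3 counts or fewer. In FeAAD it was 0.489, 1.95, 0.433, 0.235, 85.3, 0.899, 1.81, 0.424 and 29.3 CPM, so that FeAAD5 and FeAAD9 were far above the other 7, of which 4 lay within the range of FeCon. In MaAAD it was 2.17, 6.39, 7.21, 1.17, 1.02, 2.05 and 48.9 CPM, with MaAAD7 holding 71% of the sum and every library above MaCon. The log2 fold change was 5.80 ± 0.97 in females (edgeR adjusted p = 4.44e-06) and 6.52 ± 1.09 in males (edgeR adjusted p = 5.9e-06). As a share of the counts of both IL-1 receptors, Il1r2 went from a median of 0.316% in FeCon to 1.06% in FeAAD and from 0.151% in MaCon to 3.28% in MaAAD. It was 40% in FeAAD5 (1442 of 3609 counts, exact 95% interval 38.4 to 41.6), 30.9% in MaAAD7 (29.1 to 32.6) and 23% in FeAAD9 (21.2 to 24.8), and 8.17% or less in the other 13 lesion libraries.

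Il1rl1, which encodes the IL-33 receptor ST2, was scarce and rose modestly. It lay between 0.692 and 3.87 CPM in FeCon (median 1.52) and between 1.63 and 7.13 CPM in FeAAD (median 3.96), with an overlap. MaCon lay between 0.465 and 3.31 CPM (median 1.26) and MaAAD between 2.15 and 4.67 CPM (median 3.61), also with an overlap. The log2 fold change was 1.11 ± 0.28 in females (edgeR adjusted p = 0.00121) and 1.31 ± 0.30 in males (edgeR adjusted p = 0.0005). It was the only member for which FeAAD5 was not the highest FeAAD library, and FeAAD9, with the second most Il1b, Il1rn and Il1r2, had the least Il1rl1. Mast cells are known for ST2, and mast cell markers (9 genes found of 10) summed to medians of 31.8 CPM in FeCon, 26.6 in FeAAD, 24 in MaCon and 35.3 in MaAAD, with 1 of 8 tested called higher in each sex. Markers of group 2 lymphoid and regulatory T cells summed to medians of 7.99 and 11.6 CPM in females and 8.62 and 11.2 CPM in males, with Il2ra and Il7r called higher in both sexes, 2 of 4 tested, and Il5 and Il13 under 0.1 CPM on average in both lesion groups. Gata3 of the same list went down, from a mean of 2.3 to 1.56 CPM in females and from 2.16 to 1.85 CPM in males. Foxp3 averaged 0.0767 CPM in FeCon and 0.0739 in FeAAD, and 0.072 in MaCon and 0.154 in MaAAD. The part of these cells in the result was not tested.

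Both inflammasome sensors rose, and the protease rose less. Nlrp3 lay between 0.586 and 1.77 CPM in FeCon (median 1.15) and between 1.98 and 18.8 CPM in FeAAD (median 3.05), and the groups did not overlap. In MaAAD it was 2.23, 3.35, 4.65, 2.15, 5.57, 4.4 and 14.9 CPM, above all of MaCon (0.281 to 1.18 CPM, median 0.783). Its log2 fold change was 2.23 ± 0.39 in females (edgeR adjusted p = 7.8e-06) and 2.81 ± 0.42 in males (edgeR adjusted p = 7.26e-07).

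Aim2 lay between 0.346 and 1.9 CPM in FeCon (median 1.01) and between 1.11 and 13.7 CPM in FeAAD (median 3.79), where 8 of 9 libraries were above every control. In MaCon it was 0.2 to 1.7 CPM (median 0.695), and in MaAAD 3.01, 3.16, 4.42, 2.4, 3.41, 3.84 and 9.03 CPM, with no overlap. Its log2 fold change was 2.25 ± 0.32 in females (edgeR adjusted p = 2.97e-07) and 2.44 ± 0.34 in males (edgeR adjusted p = 3.41e-07).

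Casp1 lay between 1.99 and 3.61 CPM in FeCon (median 2.78) and between 2.84 and 12.4 CPM in FeAAD (median 5.25), where 7 of 9 libraries were above every control. In MaAAD it was 8.68, 5.09, 5.82, 6.02, 6.11, 7.75 and 10.5 CPM, above all of MaCon (2.27 to 4.29 CPM, median 2.99). In males it was called, with a log2 fold change of 1.26 ± 0.20 (edgeR adjusted p = 2.42e-06). In females the log2 fold change rounded to 1.00 ± 0.19 (edgeR adjusted p = 3.51e-05) and fell just short of the fold threshold, while DESeq2 called it, so that 7 members were called in FeAAD with edgeR and 9 with DESeq2, which also called Il1a, among 1583 of 18782 genes that it called higher. In MaAAD DESeq2 called 9, again with Il1a in addition, among 1459 genes called higher. FeAAD9, second in Il1b, had the least Casp1 of FeAAD.

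**Figure D2:**
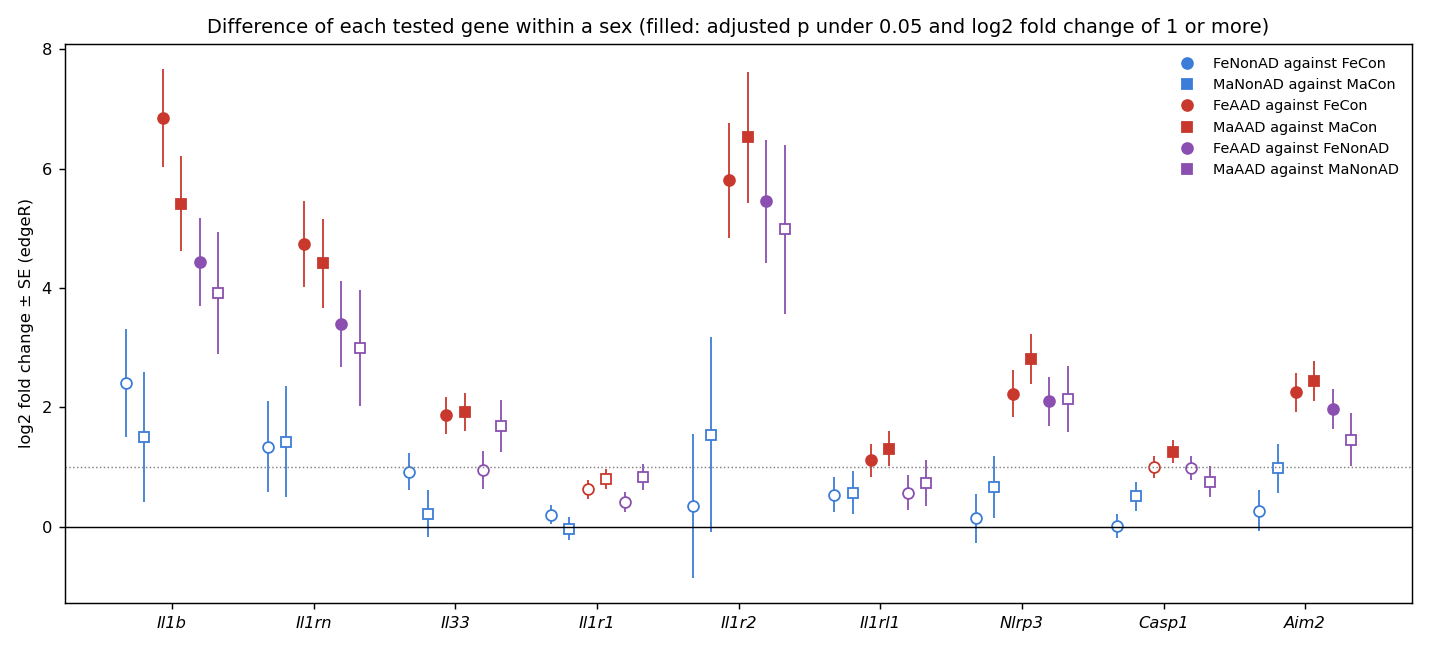
Log2 fold change with its SE for the 9 tested genes in the 6 comparisons within a sex (circles, females; squares, males; blue, BAPN without a lesion against control; red, lesion against control; purple, lesion against BAPN without a lesion); filled symbols passed both thresholds. Within each comparison of a lesion group Il1b and Il1r2 had the largest differences, from 3.91 to 6.84, and no symbol is filled for BAPN without a lesion.

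After BAPN without a lesion edgeR called no member in either sex. In FeNonAD against FeCon, edgeR called 0 of 9 members, where 1.67% of all tested genes were called higher (at an unadjusted p under 0.05, 2 of 9 members and 4172 of 14431 genes), and DESeq2 called 1, Il1b (292 of 18782 genes called higher by DESeq2). In MaNonAD against MaCon edgeR called 0 of 9, against 0.381% of all tested genes (at an unadjusted p under 0.05, 2 of 9 members and 1734 of 14431 genes), and DESeq2 called 0. No member was higher in every library than in every control in either sex, as were 0.367% of tested genes in females and 0.617% in males. Il1b was 0.248, 0, 0.305, 0.372, 1.49, 0.0612, 0.196 and 4.08 CPM in FeNonAD and 0.838, 0.318, 0.723 and 0.334 CPM in MaNonAD, with 6 of 8 and 4 of 4 libraries above the control median. Its log2 fold change was 2.41 ± 0.91 in females (edgeR adjusted p = 0.065) and 1.50 ± 1.09 in males (edgeR adjusted p = 0.637). Il1rn, Il1r2, Il1rl1, Casp1 and Aim2 were also above the control median in all 4 MaNonAD libraries, and Il33 in all 8 FeNonAD libraries. The share of all tested genes that met this weak criterion was not computed. In MaNonAD against MaCon 11 of 12 macrophage and monocyte markers had a log2 fold change above 0 (median 0.94), and 0 were called. For Casp1 (3.67 to 4.84 CPM) and Aim2 (1.21 to 1.74 CPM), which had the lowest p, the edgeR fit gave log2 fold changes of 0.51 ± 0.24 and 0.98 ± 0.41 (edgeR adjusted p = 0.371 and 0.304).

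FeNonAD8 stood apart from the other FeNonAD libraries. It was the highest of the 8 libraries for 8 of the 10 members, with 140 CPM of Il33 against 29.8 to 42.8 in the others, 120 CPM of Il1r1 against 42.1 to 61.7, 1.53 CPM of Il1r2 against 0 to 0.186, and 4.08 CPM of Il1b. Il33 was the member with an adjusted p under 0.05 in this comparison, at a log2 fold change of 0.92 ± 0.31 (edgeR adjusted p = 0.0388), and without FeNonAD8 it was 0.46 (edgeR adjusted p = 0.304). The other FeNonAD libraries, at 29.8 to 42.8 CPM of Il33, were still above the FeCon median of 23.4 CPM. Without that library Il1b was 1.30 above FeCon on the log2 scale, and the signs of Il1r1, Il1r2 and Nlrp3 turned. Macrophage and monocyte markers summed to 906 CPM in FeNonAD8, the most of FeNonAD (434 to 906 CPM), and neutrophil markers to 7.9 CPM, within the range of the group (1.98 to 8.79 CPM). FeNonAD8 also had the highest fibroblast sum of FeNonAD, 15347 CPM against at most 12336 in the others, and the lowest smooth muscle (26250 CPM), endothelial (611 CPM) and adipocyte (826 CPM) sums. The part of these cells in the result was not tested.

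Between mice with and without a lesion after the same BAPN treatment, the estimates for the 9 tested members were above 0 in both sexes, and only some of them in females passed the test. In FeAAD against FeNonAD, 5 of 9 members were called (Il1b, Il1rn, Il1r2, Nlrp3 and Aim2), where 6.79% of all tested genes were called higher. The log2 fold changes were 4.43 ± 0.74 for Il1b (edgeR adjusted p = 9.96e-05), 3.39 ± 0.72 for Il1rn (adjusted p = 0.000631), 5.45 ± 1.03 for Il1r2 (adjusted p = 0.000191), 2.10 ± 0.41 for Nlrp3 (adjusted p = 0.000301) and 1.97 ± 0.34 for Aim2 (adjusted p = 0.000102). Casp1 (0.99 ± 0.20, edgeR adjusted p = 0.000448) and Il33 (0.95 ± 0.32, edgeR adjusted p = 0.0338) were below the fold threshold. Il1rl1 (0.57 ± 0.29) and Il1r1 (0.42 ± 0.17) did not pass the test. No member was higher in every FeAAD library than in every FeNonAD library, as were 0.166% of tested genes, and FeNonAD8 was above 8 of the 9 FeAAD libraries for both Il33 and Il1r1. Of cell markers, 10 of 12 for macrophages and monocytes, 6 of 8 tested for neutrophils and 3 of 10 for T or B cells were called higher in FeAAD than in FeNonAD. Their part in the result was not tested.

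In MaAAD against MaNonAD edgeR called 0 of 9 members, where 0.353% of all tested genes were called higher, although 8 of 9 had an unadjusted p under 0.05, as did 2694 of 14431 genes, and 7 of 9 were higher in every MaAAD library than in every MaNonAD library, as were 2.97% of tested genes. The log2 fold changes were 3.91 ± 1.02 for Il1b, 1.69 ± 0.44 for Il33 and 2.14 ± 0.56 for Nlrp3, all with an edgeR adjusted p of 0.0502. They were 4.98 ± 1.41 for Il1r2 (edgeR adjusted p = 0.0534) and 0.83 ± 0.22 for Il1r1 (edgeR adjusted p = 0.0507), the last with no overlap of the groups. Il1rn (2.99 ± 0.97, edgeR adjusted p = 0.0785), Aim2 (1.46 ± 0.45, adjusted p = 0.067) and Casp1 (0.75 ± 0.26, adjusted p = 0.1) followed. DESeq2 called 6 of them, Il1b, Il1rn, Il1r2, Il33, Nlrp3 and Aim2, among 507 of 18782 genes that it called higher. Leaving out 1 library at a time gave between 0 and 6 calls: 6 without MaAAD1, 5 without MaAAD4, 4 without MaAAD2, 3 without MaNonAD1 and 0 without any 1 of the other 7. Calls over all tested genes moved in the same way, to 712, 323, 378, 355 and 0 from 51.

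The 3 libraries rich in neutrophil markers set the size of part of these differences. FeAAD5 was the highest FeAAD library for 9 of the 10 members and MaAAD7 the highest MaAAD library for 8 of 10. Summed neutrophil markers had medians of 3.58 CPM in FeCon and 12.1 in FeAAD (6.75 to 891 CPM), and of 4.3 in MaCon and 22.6 in MaAAD (8.79 to 243 CPM), with 6 of 8 tested markers called higher in females and 5 higher and 1 lower (Ngp) of 8 in males. The sum came mainly from S100a8, S100a9, Csf3r and Cxcr2, while Ly6g, a defining marker of the lineage, and Camp, Mpo and Elane averaged under 0.1 CPM in both lesion groups. Macrophage and monocyte markers rose more evenly, from a median of 478 CPM in FeCon to 1048 in FeAAD (673 to 5453 CPM) and from 447 in MaCon to 1604 in MaAAD (848 to 3680 CPM), with 11 of 12 called higher in each sex, while Mertk went down from a mean of 153 to 101 CPM in females and from 159 to 96.8 CPM in males. FeAAD9 differed from FeAAD5 and MaAAD7 in having neutrophil markers at 204 CPM with macrophage and monocyte markers at 1048 CPM, the median of its group. MaAAD7 had heart muscle markers at 492 CPM, against at most 116 in the other MaAAD libraries. In FeAAD against FeCon 6 of 10 heart muscle markers were called lower (median log2 fold change -1.55), and FeCon10, the highest FeCon library for 7 of the 10 members, had 757 CPM of them against at most 223 in the other FeCon libraries. T or B cell markers were called higher for 5 of 10 genes in FeAAD and 3 of 10 in MaAAD against their controls. Smooth muscle markers fell to medians of 22142 CPM in FeAAD and 21261 in MaAAD from 44646 and 42517 in the controls, with 5 and 7 of 10 called lower.

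Without FeAAD5, FeAAD9 and MaAAD7, a choice made after their values were seen, Il1b was still 5.00 ± 0.61 above FeCon on the log2 scale (edgeR adjusted p = 2.31e-08) and 4.81 ± 0.60 above MaCon (edgeR adjusted p = 3.24e-08). Il1r2 in FeAAD dropped from 5.80 to 1.90 ± 0.56 (edgeR adjusted p = 0.00664) and Il1rn from 4.73 to 2.20 ± 0.50 (edgeR adjusted p = 0.000529). In males Il1r2 went from 6.52 to 4.96 ± 0.60 and Il1rn from 4.41 to 3.99 ± 0.52. Nlrp3 (1.50 ± 0.31), Aim2 (1.76 ± 0.28) and Il33 (1.37 ± 0.25) kept their calls in FeAAD, and Il1rl1 was 1.21 ± 0.29. In MaAAD Nlrp3 was 2.30 ± 0.32, Aim2 2.13 ± 0.29, Il33 1.60 ± 0.26, Casp1 1.14 ± 0.16 and Il1rl1 1.31 ± 0.30, all still called. The counts of members called remained 7 in FeAAD against FeCon and 8 in MaAAD against MaCon. Against FeNonAD, however, Il1rn was 0.86 ± 0.49 (edgeR adjusted p = 0.355) and Il1r2 1.55 ± 0.58 (edgeR adjusted p = 0.0908), leaving Il1b (2.58 ± 0.54, edgeR adjusted p = 0.00153), Nlrp3 (1.36 ± 0.32, edgeR adjusted p = 0.00426) and Aim2 (1.48 ± 0.29, edgeR adjusted p = 0.000982), 3 members in place of 5. Against MaNonAD 5 members were called in place of 0, and 214 of all tested genes in place of 51, but without MaAAD7 alone the count was 0 for both, so that the calls came with the female libraries also left out of the shared fit.

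**Figure D3:**
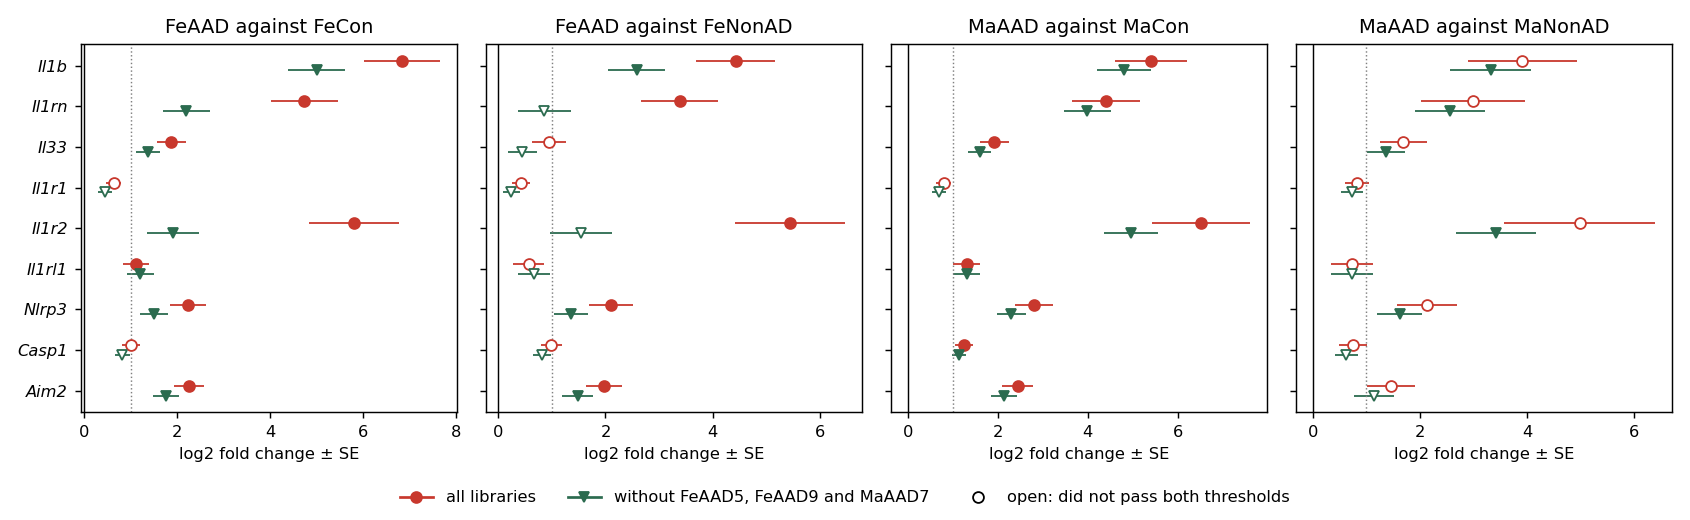
Log2 fold change with its SE for the 9 tested genes in the lesion groups, with all libraries (red circles) and without FeAAD5, FeAAD9 and MaAAD7 (green triangles), in 4 comparisons; filled symbols passed both thresholds. Il1r2 in FeAAD against FeCon moved from 5.80 to 1.90, while Il1rl1 moved from 1.11 to 1.21.

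**Figure D4:**
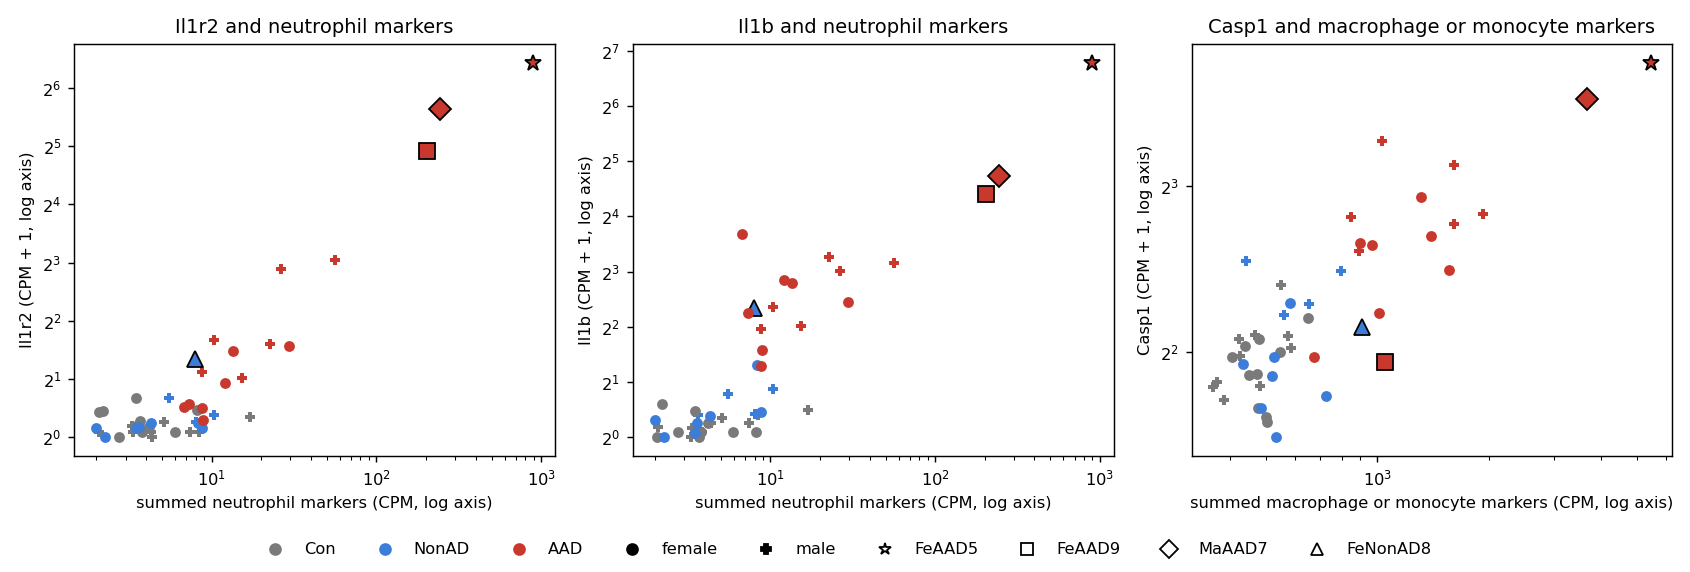
Il1r2 and Il1b against summed neutrophil markers and Casp1 against summed macrophage and monocyte markers, all in CPM on log axes with 1 added to the gene's CPM, 1 point per library (grey, Con; blue, NonAD; red, AAD; circles, females; crosses, males; 4 named libraries with symbols of their own). FeAAD5, FeAAD9 and MaAAD7 had 204 CPM or more of neutrophil markers and held the 3 highest Il1r2 levels, and FeAAD9 was the lesion library with the least Casp1.

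Within the lesion groups, the relation of Il1b to the other 9 members and to 2 marker means was computed on log2(CPM + 1). There were 22 relations in all, with two-sided exact permutation tests. A marker mean is the mean of log2(CPM + 1) over the 12 neutrophil or the 12 macrophage and monocyte markers. It is not the summed CPM given above. In FeAAD (n = 9), Il1b was related to Il1rn (Pearson's r = 0.91, exact permutation p = 0.00169, adjusted 0.0186; Spearman's rho = 0.85, exact permutation p = 0.00607, adjusted 0.0935). In MaAAD (n = 7), Il1rn did not pass the test (r = 0.639, exact permutation p = 0.115, adjusted 0.149; rho = 0.536, exact permutation p = 0.236, adjusted 0.344). For Il1r2 r was 0.894 in FeAAD (exact permutation p = 0.00335, adjusted 0.0243; rho = 0.75, exact permutation p = 0.0255, adjusted 0.0935), and in MaAAD Il1b was also related to it (r = 0.93, exact permutation p = 0.00774, adjusted 0.0243; rho = 0.75, exact permutation p = 0.0663, adjusted 0.182). With the neutrophil marker mean r was 0.874 in FeAAD (exact permutation p = 0.00931, adjusted 0.0246; rho = 0.433, exact permutation p = 0.25, adjusted 0.344) and 0.939 in MaAAD (exact permutation p = 0.00496, adjusted 0.0243; rho = 0.857, exact permutation p = 0.0238, adjusted 0.0935). With the macrophage and monocyte marker mean r was 0.7 in FeAAD (exact permutation p = 0.0501, adjusted 0.0734) and 0.802 in MaAAD (exact permutation p = 0.0423, adjusted 0.0664), with rho of 0.45 and 0.607 (exact permutation p = 0.23 and 0.167). For Il1rl1 neither sex passed the test (r = -0.173 and -0.0666; rho = -0.267 and -0.179; exact permutation p = 0.645 and 0.867, and for rho 0.493 and 0.713). Without the 2 libraries farthest from the median of Il1b, FeAAD5 and FeAAD9 or MaAAD4 and MaAAD7, r with Il1rn in FeAAD was 0.512 (exact permutation p = 0.242) and r with Il1r2 in MaAAD 0.684 (exact permutation p = 0.225). Without those libraries 7 or 5 points were left, and r with Il1r2 in FeAAD was 0.312 (exact permutation p = 0.488). Of the 22 relations, 8 changed sign and 12 others no longer had an exact permutation p under 0.05, with fewer points. Among them r with the neutrophil marker mean in FeAAD went from 0.874 to 0.0244, and r with Il1r1 in MaAAD from 0.87 to 0.845.

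The sexes were compared at each stage, since the design holds females and males for Con, NonAD and AAD. No member was called between the sexes in controls, where 1.51% of all tested genes were called, in NonAD, where 0.0485% were, or in AAD, where 0.0693% were, by edgeR or by DESeq2. At an unadjusted p under 0.05, edgeR gave 0, 1 and 0 members, beside 4206, 934 and 321 of 14431 genes. The 1 member was Casp1 in MaNonAD against FeNonAD (log2 fold change 0.63 ± 0.25, edgeR adjusted p = 0.72). In lesioned aortas Il1b was 1.11 ± 0.64 lower on the log2 scale in males (log2 fold change of MaAAD against FeAAD -1.11, 95% interval -2.36 to 0.14, edgeR adjusted p = 1), and Casp1 0.39 ± 0.20 higher (-0.01 to 0.78). For Il1r1 (-0.01, -0.34 to 0.33) the interval left out a doubling in either direction, and for Il1r2 (-0.45, -2.01 to 1.12) it did not. For Il33 (0.34, -0.31 to 0.98) the upper limit was too close to a doubling to leave it out, since the intervals are approximate. Without FeAAD5, FeAAD9 and MaAAD7 the difference in Il1b was 0.14 ± 0.53 and that in Il1r2 1.90 ± 0.54 (edgeR adjusted p = 0.364), so the sign of both followed those 3 libraries.

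The response itself was also compared between the sexes. The difference between males and females in the change from Con to NonAD was called for no member, with 0.298% of all tested genes called, that from Con to AAD for none, with 0.52% called, and that from NonAD to AAD for none, with 0% called. No member reached an unadjusted p of 0.05 in any of the 3 differences with edgeR, as 1752, 2220 and 150 of 14431 genes did, and DESeq2 called none. For Il1b the change from Con to AAD was 1.44 ± 1.27 smaller in males on the log2 scale (male minus female -1.44, 95% interval -3.92 to 1.05), an interval that holds both a large difference and 0. For Il1r2 the male minus female difference was 0.72 ± 1.53, and 3.06 ± 0.88 without FeAAD5, FeAAD9 and MaAAD7 (edgeR adjusted p = 0.0561).

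The genes whose log2(CPM + 1) was most like each tested member over the 48 libraries were listed by Pearson's r, with the group differences included and with no test. For Il1b they were Bcl2a1d (r = 0.949), Mefv (0.947) and Osm (0.945), for Il1rn Trem1 (0.959), Cd300lf and Clec4e, and for Il1r2 Cxcr2 (0.974), Cxcl3 and Fcrlb (both 0.973 after rounding). For Nlrp3 the first was Fgd3 (0.958), for Aim2 Otulinl, for Casp1 Cd48 (0.889), for Il33 Fcgr2b (0.906), for Il1r1 Cbfb (0.894) and for Il1rl1 Man1a (0.822). Among these 9 members r was highest for Il1r2 and lowest for Il1rl1 over the 48 libraries. Without FeAAD5, FeAAD9 and MaAAD7 the r of Il1r2 with Cxcr2 was 0.879, below that of Nlrp3 with Fgd3 (0.939), and that of Il1b with Bcl2a1d 0.898, of Il1rn with Trem1 0.902 and of Il1rl1 with Man1a 0.829.

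Of the rest of the pathway, 67 genes of 4 lists were tested: other IL-1 family ligands and receptors, the signalling chain below the receptor, other inflammasome and pyroptosis genes, and genes known to be induced by IL-1. In FeAAD against FeCon 27 of 67 were called higher and 0 lower, where 9.94% of all tested genes were called higher, and in MaAAD against MaCon 29 and 0, where 9.18% were. Of 18 genes of the signalling chain (Myd88, Irak1, Irak4, Traf6, Map3k7, Rela, Nfkb1 and others), edgeR called 0 in either sex, with median log2 fold changes of -0.07 and 0.09, and DESeq2 called 0, while 8 in each sex had an unadjusted p under 0.05 in edgeR, as did 7323 of 14431 genes in females and 6288 in males. An adjusted p under 0.05 below the fold threshold was found for 6 of 18 in each sex, with 6410 of 14431 genes at an adjusted p under 0.05 in females and 5050 in males, and in both directions, among them Irak4 (0.83 ± 0.11 in females and 0.90 ± 0.11 in males) and Irak2 (-0.63 ± 0.09 and -0.64 ± 0.10), named after their values were seen. Of the 8 other family genes tested, 3 were called in each sex. Il18rap, the accessory chain of the IL-18 receptor, had log2 fold changes of 4.33 ± 0.58 (edgeR adjusted p = 7.69e-08) and 4.67 ± 0.61 (adjusted p = 9.06e-08), from 0.188 ± 0.117 CPM in FeCon to 3.92 ± 4.31 in FeAAD.

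Of 21 other inflammasome genes, 12 were called higher in FeAAD (median log2 fold change 1.51; 9.94% of all tested genes called higher) and 13 in MaAAD (1.58; 9.18%), among them Pycard, the adaptor between sensor and caspase-1, Nlrc4, Casp4 and Mefv, which encodes pyrin. Mefv went from 0.0335 ± 0.072 CPM in FeCon to 3.79 ± 5.63 in FeAAD (log2 fold change 6.49 ± 0.88, edgeR adjusted p = 8.03e-08) and by 7.14 ± 0.94 in males (adjusted p = 1.05e-07). Naip2, Naip5 and Naip6, near-identical copies among which reads were shared out, were called in both sexes and are uncertain as single genes.

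Of 20 genes induced by IL-1, 12 were called in FeAAD (median log2 fold change 1.67) and 13 in MaAAD (2.06), beside 9.94% and 9.18% of all tested genes. Il6, an acute-phase cytokine, had log2 fold changes of 6.26 ± 0.92 (edgeR adjusted p = 4.5e-07) and 6.25 ± 1.01 (adjusted p = 3.31e-06). The chemokines Ccl2 (3.60 ± 0.66 in females and 5.17 ± 0.75 in males) and Cxcl5 (3.81 ± 0.74 and 4.20 ± 0.77) and the acute-phase gene Saa3 (5.61 ± 1.04 and 5.52 ± 0.97) rose in both sexes. Without FeAAD5, FeAAD9 and MaAAD7 these genes were still called in both sexes, each with a smaller change. In females Il6 was 5.32 ± 0.88, Ccl2 2.02 ± 0.55, Cxcl5 1.30 ± 0.50 and Saa3 3.66 ± 0.90. In males they were 5.62 ± 0.97, 4.63 ± 0.62, 3.10 ± 0.50 and 4.22 ± 0.79. Mefv (5.12 ± 0.75 in females and 6.47 ± 0.78 in males) and Il18rap (3.43 ± 0.50 and 4.14 ± 0.52) were also still called. In NonAD against Con 3 pathway genes were called, 2 of 67 in females (1.67% of all tested genes) and 1 of 67 in males (0.381%): Il6 (3.69 ± 0.97, edgeR adjusted p = 0.00791) and Mmp13, a collagenase (1.59 ± 0.50, edgeR adjusted p = 0.0244), in females, and Vcam1, an endothelial adhesion molecule (1.01 ± 0.25, edgeR adjusted p = 0.046), in males. In MaNonAD 4 of 10 T or B cell markers (Cd79a, Cd79b, Ms4a1 and Pax5) were also called higher than in MaCon, with summed levels of 18.6 to 36 CPM against 2.21 to 115 CPM (medians 26.3 and 9.77), and their part in the results for MaNonAD was not tested. In FeNonAD the macrophage and monocyte marker Ccr2 and the T or B cell marker Cd79b were called higher than in FeCon. The heart muscle marker Actn2 was called lower there, and the part of these cells in the results for FeNonAD was not tested. Without FeNonAD8 neither the Il6 call nor the Mmp13 call in females remained. The genes induced by IL-1 answer to many signals besides IL-1, and which cells or signals raised them was not tested. In FeAAD against FeNonAD 27 of 67 pathway genes were called higher (6.79% of all tested genes), and 11 without FeAAD5, FeAAD9 and MaAAD7, where calls over all genes fell from 1016 to 633. In MaAAD against MaNonAD 5 were called (0.353% of all tested genes), Il6, Ccl2, Lcn2, Casp4 and Card9, with between 0 and 19 when 1 library was left out: 19 without MaAAD1, 15 without MaAAD4, 14 without MaAAD2 or MaNonAD1, and 0 without any 1 of the other 7, in step with the counts over all genes given above.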

How the data were processed

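RNA of 48 thoracic aortas, 1 mouse each, was sequenced as strand-specific mRNA libraries. The authors deposited expected counts per gene symbol (18782 genes), which the submitters' processing notes tie to Bowtie2, RSEM 1.3.1 and GRCm39. Of these values 4.99% were not whole and were rounded, none of them in the 10 members. Library totals ran from 13548000 to 17281273 counts (median 15681340), and intervals on shares cover counting error only. The paper's Methods describe DESeq2 with the same thresholds as here.

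Counts were normalised by TMM (factors 0.874 to 1.08), filtered with filterByExpr and fitted over all 6 groups with edgeR 4.0.16 (robust quasi-likelihood test, R 4.3.3), with Benjamini-Hochberg adjustment over 14431 genes. Alternatives were DESeq2 1.42.0, its size factors, no filter, no robust estimation, a replicate block, fits of only the groups compared, and each library left out in turn. Intervals of log2 fold changes are a normal approximation, with the SE worked back from the fold change and its test statistic. Levels are TMM-scaled CPM, correlations used log2(CPM + 1), and figures were drawn with matplotlib 3.10.9. Permutation tests were exact and two-sided (scipy 1.17.1). P-values measure the spread between these mice, which were grouped by outcome.

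The members and gene lists were chosen with earlier results of these data known. Named were all members, the 5 called pathway genes with the largest fold change and a mean count of at least 10 in each AAD against Con comparison, any pathway gene called in NonAD against Con, a few other genes given as examples of a list (chosen after their values were seen), and genes among the 3 most like each tested member (1 result of this kind is not reported here). The sets of 3 libraries left out together were chosen after seeing the data. Positions come from GENCODE M21 and promoters from RefSeq, both on GRCm38, matched by symbol for all 10 members, and the build of the counts was another one. The labels name no batch, and none was modelled.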

Additional observations from a re-analysis of the deposited data

Results flagged for a closer look

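On log2(CPM + 1), 7 of the 60 combinations of a member and a group held a library set apart from the others of its group by Dixon's criterion, where chance gives about 1 in 20 for independent, normally distributed values. These values were not of that kind. Members were correlated over the 48 libraries (Nlrp3 with Aim2, r = 0.939), and Il1a had many libraries at 0. FeNonAD8 was set apart for 3 members, with 140 CPM of Il33 (29.8 to 42.8 in the others), 120 CPM of Il1r1 (42.1 to 61.7) and 1.53 CPM of Il1r2 (0 to 0.186). MaAAD7 was set apart for Aim2, at 9.03 CPM against 2.4 to 4.42, at the edge of the criterion (0.568 against a critical value of 0.568, both rounded). For Il1a, FeAAD5 stood at 3.37 CPM against 0 to 0.846 in the other FeAAD libraries. The other two were at the limit of detection, Il1a at 0.131 CPM in FeCon10 and at 0.134 CPM in MaNonAD4, where the other libraries of that group had 0. No cause was tested.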

How the results depend on the processing

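In FeAAD and MaAAD against their controls the number of members called stayed within 1.5 times under each alternative run (6 to 9 in females, 6 without FeAAD6, which put Il1rl1 at 0.94; 8 or 9 in males). In FeNonAD against FeCon it went from 0 to 1 with the adjusted p alone, with DESeq2, and without FeAAD5, FeAAD9 and MaAAD7, and from 0 to 1 on leaving out single libraries. In FeAAD against FeNonAD it went from 5 to 3 without FeAAD5, FeAAD9 and MaAAD7. In MaAAD against MaNonAD it went from 0 to 6 with DESeq2, 3 with DESeq2's size factors, 3 with no robust estimation, 3 without FeNonAD8, FeAAD5 and MaAAD7, 5 without FeAAD5, FeAAD9 and MaAAD7, and 0 to 6 on leaving out single libraries. Over all tested genes this comparison gave 51 calls, 518 with DESeq2, 168 with its size factors and 0 with no filter. It gave 99 with no robust estimation, 0 with the compared groups only, 247 without FeNonAD8, FeAAD5 and MaAAD7, and 214 without FeAAD5, FeAAD9 and MaAAD7.

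Of the other pathway genes, FeNonAD against FeCon gave 2 calls, 8 with the adjusted p alone, 4 with DESeq2, 1 with the compared groups only, 0 without FeNonAD8, FeAAD5 and MaAAD7, 4 without FeAAD5, FeAAD9 and MaAAD7, and 0 to 3 without single libraries. MaNonAD against MaCon gave 1 pathway call, 3 with the compared groups only, 2 without FeNonAD8, FeAAD5 and MaAAD7, and 0 to 1 without single libraries. Over all tested genes these were 69, 141, 176 and 15 to 79. FeAAD against FeCon gave 27 pathway calls, and 44 with the adjusted p alone, which 6410 of 14431 genes passed. FeAAD against FeNonAD gave 27, and 11 without FeAAD5, FeAAD9 and MaAAD7. MaAAD against MaNonAD gave 5, 19 with DESeq2, 9 with its size factors, 0 with no filter, 0 with the compared groups only, 11 without either set of 3 libraries, and 0 to 19 without single libraries. Both sets of 3 libraries were chosen after seeing the data.

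Replicate numbers name mice and did not pair them. A replicate block put the pathway calls at 1 in FeNonAD against FeCon, 0 in MaNonAD against MaCon and 0 in MaAAD against MaNonAD, Il1r1 at 0.10 in MaNonAD against MaCon and Casp1 at -0.03 in FeNonAD against FeCon.

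No log2 fold change within a sex that was called turned its sign. In FeNonAD against FeCon without FeNonAD8, FeAAD5 and MaAAD7, Il1r1 was -0.02, Il1r2 -0.85, Nlrp3 -0.23 and Casp1 -0.04 on the log2 scale. Without single libraries Il1r1 ran from -0.02 to 0.26, Il1r2 from -0.86 to 0.53, Nlrp3 from -0.24 to 0.27 and Casp1 from -0.08 to 0.08 there, and Il1r1 from -0.10 to 0.08 in MaNonAD against MaCon. Without the 2 libraries farthest from the median of Il1b, its r was -0.503 with Il1a, -0.166 with Casp1 and -0.219 with Aim2 in FeAAD, and -0.775 with Il1a, -0.237 with Il1rn, 0.123 with Il1rl1, -0.182 with Casp1 and -0.103 with the macrophage and monocyte marker mean in MaAAD. In each case the cause was not tested. Genes with few counts in the controls (Il1a, Il1b, Il1r2, Il1rn) limit the precision of the folds.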
